A study of Rattus norvegicus and Mus musculus with 61 samples.

Results

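Mouse cortex taken 24 h after a controlled cortical impact was compared with cortex taken 24 h after sham surgery. The comparison used 3 injury arrays and 2 sham arrays, chosen by the group and time in their labels, which made 5 of 22 mouse arrays and of 61 arrays in the whole series. The other 8 uninjured mouse arrays (6 sham arrays from 4, 8 and 72 h and 2 naive arrays) served as a check. The series followed gene expression after brain injury in mouse and rat on Affymetrix arrays, which report 1 fluorescence intensity (called signal here) per probe set.

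Injured mice were male C57BL/6 animals of 20 to 25 g under isoflurane in oxygen, and a pneumatic impactor struck the parieto-occipital cortex at 6 m/s with a deformation of 1.5 mm. Sham mice of the same sex, strain and weight had the surgery and anaesthesia without the impact. A 4 mm disk of that cortex, around the contusion in injured mice, was taken from each animal, and disks of 3 animals were pooled for each RNA sample, so that an array averages over animals. Injury titles carry the numbers 1 to 3, each followed by the letter c, while both sham titles carry the number 1, followed by the letter c or d (1c and 1d here). What the letters stand for is not stated. The labels do not say whether the sham arrays came from separate pools, so p-values here measure the spread between arrays. In tissue pieces, fewer cells of a type and less RNA per cell cannot be told apart.

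A blunt blow to the cortex tears vessels and axons, and the tissue then passes through waves of response: early genes and chemokines within hours, entry of blood leukocytes over the first days, and a slower reaction of resident glia. Microglia, the brain's own macrophages, take up debris and make complement. Astrocytes, which normally clear glutamate and couple through gap junctions, build up intermediate filaments such as glial fibrillary acidic protein and secrete protease inhibitors and matrix.

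Median deposited signals were 307 to 337 in injury and 313 and 322 in sham arrays, on the common scale that the deposited values share. Injury replicate 3 had 5.26% of its values at the floor, against 10.1% to 10.6% in the other 4 arrays. Correlations over genes (log2 signals) were 0.929 to 0.948 between injury arrays, 0.961 between the sham arrays and 0.890 to 0.921 across the groups. Injury replicate 2 had the highest correlations with sham (0.909 and 0.921). Defining markers of cortex differed in level. The neuronal calmodulin-binding gene Nrgn had 3600 to 6710 in injury and 3950 and 5270 in sham arrays, and the myelin gene Mbp had 6290 to 7670 in injury and 5350 and 7870 in sham arrays. The cortical neuron gene Tbr1 had 4440, 4700 and 2850 in injury arrays against 6430 and 6220 in sham arrays and was called as fallen. That call was lost without injury replicate 3 (Benjamini-Hochberg adjusted p = 0.12 in limma) and without either sham array. Dimmer cortical neuron markers were Camk2a (115, 188 and 79.6 in injury, 92.5 and 480 in sham arrays) and Neurod6 (305, 187 and 35.4 in injury, 546 and 623 in sham arrays). The dentate gyrus marker Prox1 had 24.1 to 78.7 in injury arrays and 24.1 and 73.8 in sham arrays, and the T cell marker Cd3g was at the floor in all 5. The choroid plexus marker Ttr had 548, 3360 and 5330 in injury arrays and 5990 and 4340 in sham arrays, within its range over the 10 uninjured arrays (494 to 7510). Pituitary markers summed to 5730 to 7240 in injury and 4240 and 4830 in sham arrays, and the 10 uninjured arrays ranged from 4100 to 24300. The part of these markers in the results was not tested.

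Of 6355 genes tested, 680 (10.7%) differed between injured and sham cortex at a Benjamini-Hochberg adjusted p below 0.05 in limma. Rises numbered 394 (6.2% of genes tested) and falls 286 (4.5%). These shares are the background for the counts of each gene list below. The typical called rise was larger than the typical called fall, with medians of 1.12 and -0.81 on the log2 scale, while the median over all genes was -0.04. At least a 2-fold difference with no overlap between the groups was found in 319 called genes (5.02%), of which 229 rose and 90 fell. Without regard to the test, all 3 injury arrays lay above both sham arrays in 1083 genes (17%) and below both in 1254 (19.7%). Set against all 10 uninjured arrays, the injury arrays were above every one in 426 genes (6.7%) and below every one in 275 (4.33%), and these included 292 of the called rises and 146 of the called falls. The count of calls rested on the 2 sham arrays: it was 378 without sham 1c and 249 without sham 1d. With each of the 5 arrays left out in turn, 145 rises and 48 falls were called every time. Injury replicate 2 lay nearest to sham in 220 of the 394 rises and 152 of the 286 falls.

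**Figure D1:**
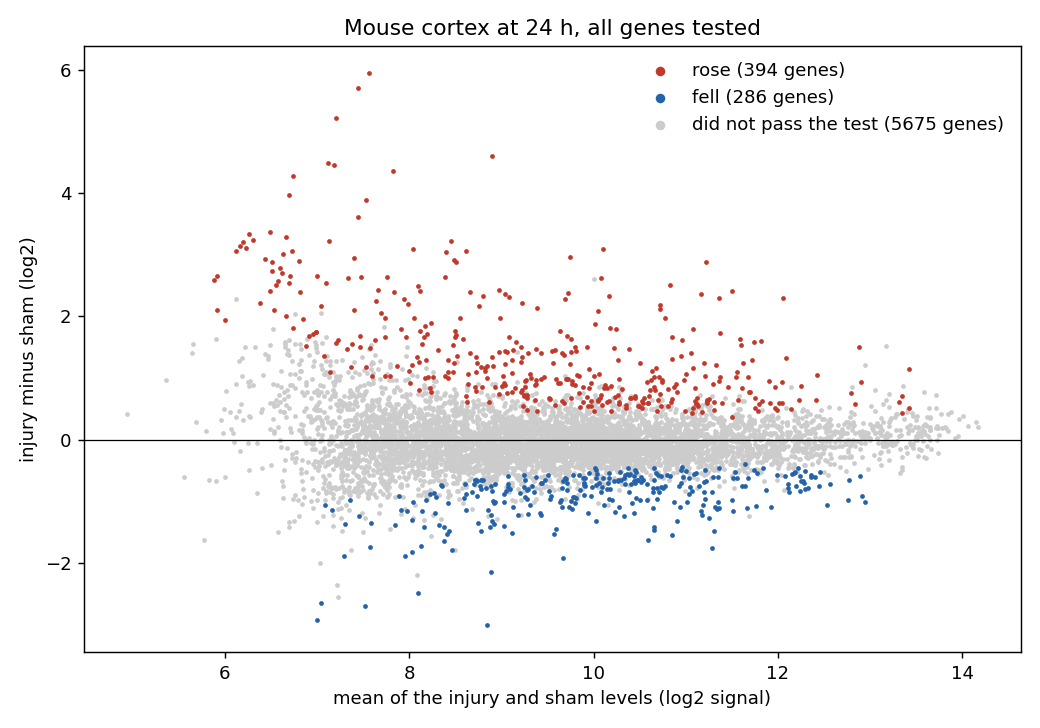
Each point is 1 of 6355 genes. The x axis gives the mean of the injury and sham group levels (log2 signal), the y axis the injury minus sham difference (log2). Red points are the 394 genes that rose, blue points the 286 that fell and grey points the rest. Rises reach 5.95 at low mean levels, while falls reach -3.01.

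Of the 12 largest rises, 4 (Ptx3, Klk6, Ccl2 and Lgals3) were at the floor in both sham arrays, so that their folds are lower bounds. Sham 1d was also at the floor for Lilr4b and Plaur, and sham 1c for Sphk1 and Arg1, so that these folds can be too small as well. Ptx3, a secreted pattern-recognition protein, had signals of 1990, 1040 and 1580 in the injury arrays and was at the floor of 24.1 in both sham arrays. That is a rise of at least 5.95 ± 0.45 on the log2 scale (adjusted p = 6.52e-08 in limma). Here and throughout, ± is the standard error from limma for 3 injury and 2 sham arrays. Its spread was estimated over all 22 mouse arrays in 9 groups. Values set to the floor show no spread, so that standard errors and p-values of genes at the floor can be too small. Klk6, a kallikrein protease of myelinating cells, had 1410, 1190 and 1190 in injury arrays and the floor in both sham arrays, a rise of at least 5.71 ± 0.44. For both genes every injury array was above all 10 uninjured arrays, which reached 103 for Ptx3 and 26.6 for Klk6.

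Other genes at the top of the list included surface and signalling proteins of leukocytes and glia. Emp1, a small membrane protein gene, had 3230, 1480 and 2730 in injury arrays against 53.9 and 172 in sham arrays (4.61 ± 0.46, adjusted p = 1.85e-06). Lilr4b, which encodes an inhibitory immunoglobulin-like receptor of myeloid cells, had 1180, 430 and 574 in injury arrays against 35.6 and 24.1 in sham arrays (4.50 ± 0.53). Sphk1, the kinase that makes sphingosine 1-phosphate, had 544, 311 and 405 against 24.1 and 28.2 in sham arrays (3.97 ± 0.53). In each of these the lowest injury array was replicate 2. The metalloprotease gene Adam8 had 604, 544 and 698 in injury arrays against 48.9 and 50.5 in sham arrays (3.62 ± 0.70), and the urokinase receptor gene Plaur had 330, 314 and 228 against 32.1 and 24.1 in sham arrays (3.37 ± 0.36). All 12 of the largest rises were above every uninjured array. The ranking used 1 probe set per gene. Second probe sets of Socs3 (5.09) and Lcn2 (5.07), both described below, gave larger differences than that of Emp1.

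**Figure D2:**
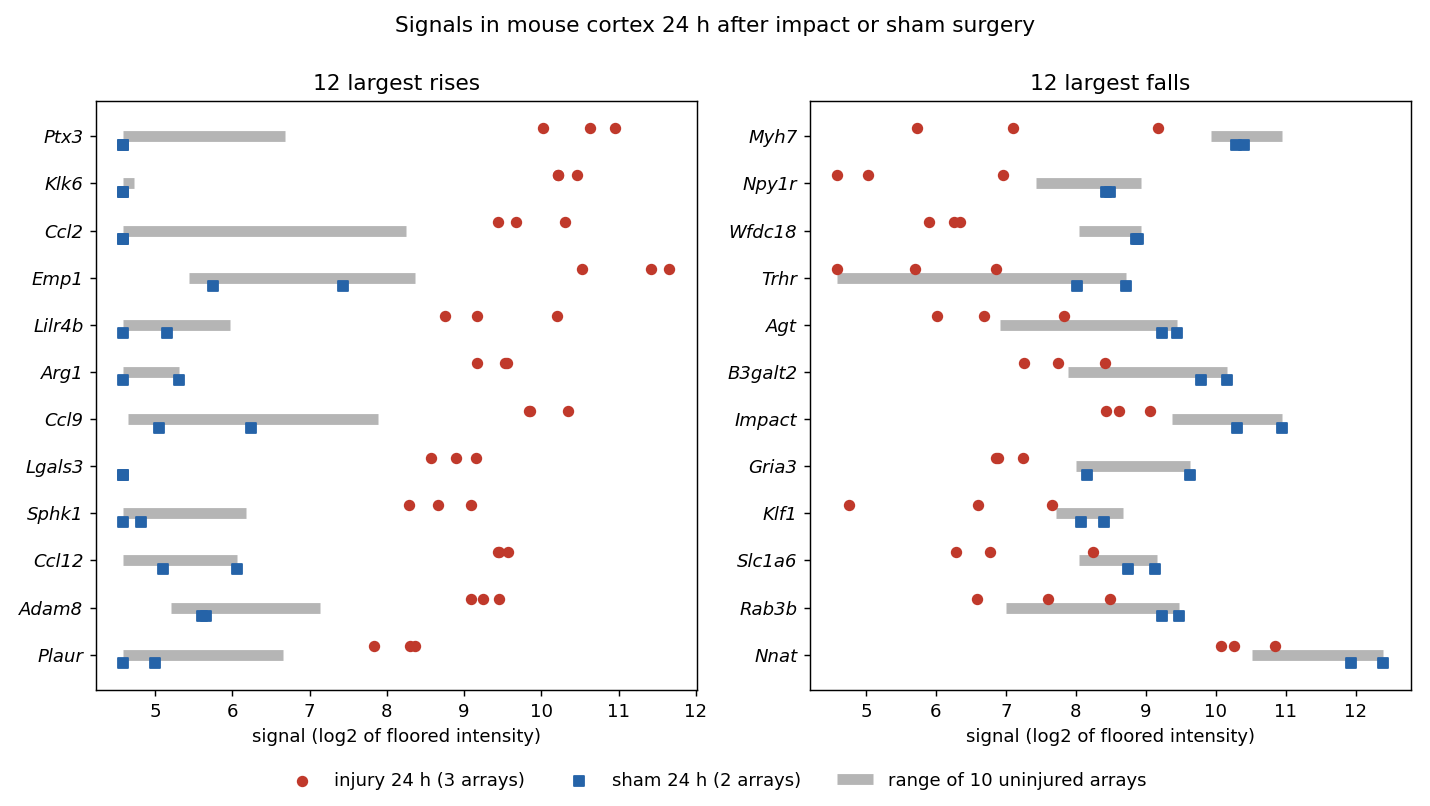
Signals (log2 of the floored intensity) of the 12 largest rises (left) and 12 largest falls (right) among called, non-overlapping genes that changed 2-fold or more. Red circles are the 3 injury arrays, blue squares the 2 sham arrays of 24 h, and grey bars the range over all 10 uninjured arrays. Injury points lie right of the grey bar in all 12 rises, while in 6 of the 12 falls they reach into it.

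Chemokines, the secreted attractants of leukocytes, rose in 7 of 13 tested genes and fell in none, with a median difference of 1.79 beside -0.04 over all genes. The monocyte attractant Ccl2 had 1270, 817 and 693 in injury arrays and the floor in both sham arrays (at least 5.22 ± 0.38, adjusted p = 4.43e-08). Its relatives Ccl12 (700, 691 and 756 in injury, 34.5 and 66.9 in sham arrays) and Ccl7 (191, 200 and 289 in injury, floor in sham arrays) rose by 3.90 ± 0.47 and at least 3.21 ± 0.46. Ccl9 had 1300, 921 and 913 in injury arrays against 75.4 and 33.1 in sham arrays (4.37 ± 0.53). Injury and sham arrays did not overlap in any of the 4, and uninjured arrays of other times stayed below the lowest injury array, with a highest value of 304 for Ccl2. Without sham 1d, 4 chemokines were called.

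Cytokine genes rose in 25% of cases and their receptors in 18.2%, beside 6.2% of all genes tested. Of 12 cytokines 3 rose, led by Tgfb1, a regulator of repair and matrix, with 87.7, 246 and 675 in injury arrays and 24.1 and 27.2 in sham arrays (3.25 ± 0.68, adjusted p = 0.00364). The injury arrays of Tgfb1 differed widely among themselves while the sham arrays were near the floor. The adjusted p of Tgfb1 was 0.0590 with only the groups compared in the fit and 0.0628 with averaged sham arrays, and no cytokine was called in either fit (limma). Only 1 cytokine was called without injury replicate 1, and also 1 without sham 1d. Of 22 cytokine and chemokine receptors 4 rose, and 2 did without sham 1d. Osmr, a receptor chain for oncostatin M, had 1240, 921 and 843 in injury arrays and 112 and 158 in sham arrays (2.89 ± 0.25, adjusted p = 4.04e-07), and the tumour necrosis factor receptor gene Tnfrsf1a had 799, 648 and 587 against 271 and 259 in sham arrays (1.34 ± 0.25). The second probe set of Tnfrsf1a gave 0.62 and was not called by itself.

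Genes of JAK-STAT signalling, through which Osmr and related receptors act, included 6 rises among 20 tested (3 without sham 1d). Cebpd, a transcription factor induced by this pathway, had 3640, 3010 and 3070 in injury arrays against 402 and 352 in sham arrays (3.10 ± 0.18, adjusted p = 2.09e-09), the smallest adjusted p of the genes named here. Socs3, the feedback inhibitor, had 1280, 706 and 1060 in injury arrays against 146 and 115 in sham arrays (2.92 ± 0.31), and its second probe set gave 5.09. Cebpb rose by 1.38 ± 0.21 (1140, 1240 and 1620 in injury, 500 and 513 in sham arrays). Stat3 itself had 2840, 3030 and 2960 in injury arrays against 1770 and 1540 in sham arrays (0.83 ± 0.16), with adjusted p = 0.00197, or 0.0554 without sham 1d. In the Toll-like receptor and NF-kB list 3 of 15 genes rose, led by the lipopolysaccharide co-receptor Cd14 (3880, 3240 and 3360 in injury, 880 and 889 in sham arrays; 1.98 ± 0.24).

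Markers of blood monocytes and macrophages rose in 8 of 13 tested genes (5 without sham 1c) and fell in none, with a median of 1.19. Lgals3, a sugar-binding protein of activated macrophages, had 569, 382 and 478 in injury arrays and the floor in all 10 uninjured arrays (at least 4.29 ± 0.51, adjusted p = 1.41e-05). Arg1, the arginine-degrading enzyme of repair-type macrophages, had 754, 736 and 576 in injury arrays against 24.1 and 39.7 in sham arrays (4.47 ± 0.62). Lyz2, the lysozyme of macrophages and neutrophils, had 710, 838 and 459 in injury arrays against 116 and 113 in sham arrays (2.50 ± 0.33). The 18 measured markers summed to 10200 to 11100 signal units in injury arrays and 4150 and 4360 in sham arrays, a summed difference with no overlap.

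Microglial markers rose in 10 of 18 cases and fell in none, with a median of 1.03. Ly86 had 1260, 1740 and 1440 in injury arrays against 429 and 430 in sham arrays (1.77 ± 0.24, adjusted p = 5.52e-05). Tyrobp, the adaptor of several microglial receptors, had 1330, 1660 and 1460 against 515 and 572 in sham arrays (1.44 ± 0.21), and the cathepsin gene Ctss had 4080, 4280 and 4690 against 2640 and 2420 in sham arrays (0.78 ± 0.13). Summed over 21 measured markers, signals were 25100 to 31100 in injury arrays and 15800 and 16100 in sham arrays. Some defining markers of microglia did not pass: Csf1r had 1960, 2020 and 2030 in injury arrays against 1770 and 1820 in sham arrays, and the fractalkine receptor gene Cx3cr1 had 475 to 599 in injury and 396 and 633 in sham arrays. Without sham 1d 6 microglial markers were called.

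Complement genes rose in 5 of 12 cases (3 without sham 1d) and fell in none. The 3 chains of C1q, the starter of the classical pathway, rose together: C1qa had 3300, 4180 and 4320 in injury arrays against 1560 and 1820 in sham arrays (1.21 ± 0.20), C1qb rose by 1.36 ± 0.14 and C1qc by 1.09 ± 0.18. The dim second probe set of C1qb did not pass (-0.28). Among 23 lysosomal genes 6 rose, 3 without sham 1c and 2 without sham 1d. Cd63, a membrane protein of late endosomes, had 7240, 5140 and 5500 in injury arrays against 1790 and 2180 in sham arrays (1.58 ± 0.24, adjusted p = 0.000266), and the cathepsin gene Ctsl rose by 0.96 ± 0.17 (3270, 2510 and 2720 in injury, 1420 and 1470 in sham arrays).

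Of the neutrophil list, 2 of 8 tested genes rose, and both encode subunits of calprotectin. S100a8 had 819, 749 and 755 in injury arrays against 79.5 and 102 in sham arrays (3.10 ± 0.37, adjusted p = 1.41e-05). S100a9 had 440, 266 and 270 against 43.6 and 24.1 in sham arrays (3.29 ± 0.67), with adjusted p = 0.00302, or 0.0698 without sham 1d. Granule genes of neutrophils gave no such separation: Elane had 334, 240 and 425 in injury arrays against 393 and 407 in sham arrays, and Camp had 169, 166 and 446 against 368 and 322 in sham arrays. None of the 5 tested T, B and NK cell markers was called by limma (1 was called without injury replicate 2). The B cell gene Ms4a1 had 237 to 550 in injury arrays and 355 and 547 in sham arrays. The B cell marker Cd79a had 318, 183 and 559 in injury arrays against 89.3 and 168 in sham arrays, without overlap.

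Interferon-induced genes rose in 11 of 15 cases and none was called as fallen, with a median of 0.98. Ifitm3, which blocks virus entry at membranes, had 3530, 4480 and 2930 in injury arrays against 716 and 873 in sham arrays (2.18 ± 0.21, adjusted p = 1.25e-06). Gbp2, an interferon-induced GTPase, had 494, 387 and 409 against 37.5 and 55.6 in sham arrays (3.23 ± 0.35). Ifi204 had 300, 200 and 134 in injury arrays and the floor in both sham arrays (at least 3.06 ± 0.56). All 3 were above every uninjured array. The count was 6 without sham 1c and 4 without sham 1d. Antigen presentation genes rose in 4 of 19 cases, 1 without sham 1d. The immunoproteasome subunit Psmb8 had 381, 458 and 782 in injury arrays against 179 and 127 in sham arrays (1.77 ± 0.34), with adjusted p = 0.00169, or 0.0509 without sham 1d.

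Astrocyte genes moved in both directions. Of 21 genes that reactive astrocytes are known to induce, 14 rose and 1 fell, with a median of 2.42. Of 19 genes of resting astrocytes, 7 fell and none rose, with a median of -0.54. The filament gene Gfap, a defining marker of astrocytes, had 13800, 10000 and 6150 in injury arrays against 1600 and 2300 in sham arrays (2.30 ± 0.30, adjusted p = 3.09e-05), and its second probe set gave 1.89. Nes, an intermediate filament of immature cells and reactive glia, had 2730, 2280 and 2770 in injury arrays against 492 and 533 in sham arrays (2.34 ± 0.17). Serpina3n, a secreted protease inhibitor, had 8200, 5320 and 6150 against 1150 and 665 in sham arrays (2.88 ± 0.25). From 12 to 14 of the reactive genes were called as risen when any 1 array was left out. The fall was of the proteoglycan gene Bcan (-0.86 ± 0.27, adjusted p = 0.0470, chosen after its value was seen). Its adjusted p was 0.201 without injury replicate 1, 0.0977 without injury replicate 3, 0.138 without sham 1c and 0.264 without sham 1d.

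Some genes of the reactive list did not pass, and for 1 of them the probe set decided. The probe set of Lcn2 (lipocalin 2, an iron-carrier binding protein) with the highest mean gave 458, 371 and 593 in injury arrays against 416 and 378 in sham arrays (0.23 ± 0.23, adjusted p = 0.600). The second probe set of Lcn2 gave 1170, 1040 and 603 in injury arrays against 24.1 and 29.9 in sham arrays (5.07 ± 0.48, adjusted p = 1.20e-06 when each of 7630 probe sets was fitted by itself, a fit in which 9.55% were called). The filament gene Vim had 146 to 194 in injury arrays and 160 and 170 in sham arrays, a low signal on its only probe set. Both genes were chosen after their values were seen.

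In 6 of the 19 resting astrocyte genes, called or not, the injury arrays stood below every uninjured array, beside 4.33% of all genes tested. Id4, an inhibitor of differentiation factors, had 616, 686 and 682 in injury arrays against 1590 and 1710 in sham arrays (-1.32 ± 0.17, adjusted p = 3.81e-05). Gja1, the gap junction protein connexin 43, had 4840, 3890 and 3680 against 9200 and 8090 in sham arrays (-1.07 ± 0.16), and Ndrg2 had 3100, 4090 and 2850 against 6140 and 5880 in sham arrays (-0.86 ± 0.16). These 3 kept their call with any array left out. Without injury replicate 2 the list had 8 falls and 1 rise. The list's count of falls was 4 without injury replicate 3, 4 without sham 1c and 3 without sham 1d. The glutamate transporter gene Slc1a2 and the water channel gene Aqp4, both of this list, were not called. Slc1a2 had 674, 605 and 520 in injury arrays against 340 and 667 in sham arrays, and Aqp4 had 3190, 1470 and 2580 against 1800 and 1630 in sham arrays. The summed signal of 19 resting astrocyte genes overlapped, with 39700 to 58200 in injury arrays and 56000 and 66300 in sham arrays.

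**Figure D3:**
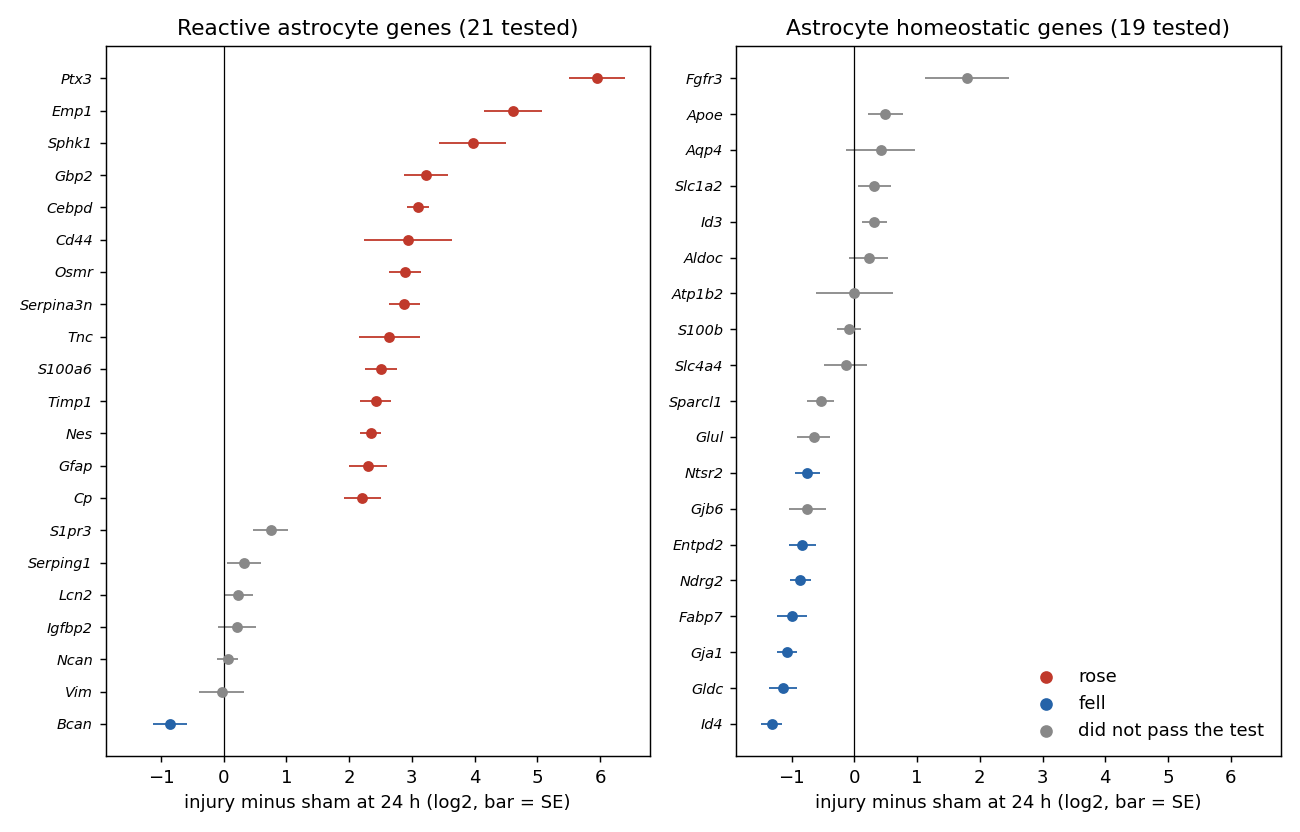
Injury minus sham differences at 24 h (log2, bars are the standard error from limma) for the 21 tested reactive astrocyte genes (left) and 19 tested resting astrocyte genes (right). Red genes rose, blue genes fell and grey genes did not pass the test. Rises in the left panel run from Cp (2.21) to Ptx3 (5.95), and falls in the right panel from Ntsr2 (-0.75) to Id4 (-1.32).

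Proteases and their inhibitors rose in 8 of 20 tested genes. Timp1, an inhibitor of matrix metalloproteinases, had 7410, 6140 and 6580 in injury arrays against 1430 and 1100 in sham arrays (2.42 ± 0.25, adjusted p = 2.33e-06). Cstb, an inhibitor of cathepsins, had 7510, 4920 and 8820 against 2590 and 2880 in sham arrays (1.33 ± 0.18). The 1 fall of the list, of the neuronal serpin gene Serpini1 (-0.92, adjusted p = 0.0215, chosen after its value was seen), had adjusted p = 0.0621 without injury replicate 1, 0.0767 without injury replicate 3, 0.134 without sham 1c and 0.105 without sham 1d. In the coagulation and plasminogen list 7 of 15 rose and none fell. The protease trap A2m had 903, 1020 and 1350 in injury arrays against 124 and 106 in sham arrays (3.23 ± 0.27, adjusted p = 2.42e-07). Anxa2 and S100a10, which together form a surface receptor for plasminogen, rose by 2.09 ± 0.26 (2130, 1810 and 2690 in injury, 485 and 541 in sham arrays) and 1.79 ± 0.18 (4170, 3470 and 4430 in injury, 1210 and 1110 in sham arrays). The second probe set of S100a10 gave 0.46 and was not called.

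Annexins, S100 proteins and actin regulators rose in 18 of 36 cases and none was called as fallen, with a median of 0.72. S100a6, a calcium-binding protein, had 3850, 5550 and 3830 in injury arrays against 687 and 844 in sham arrays (2.51 ± 0.25, adjusted p = 1.85e-06). Cnn3, a calponin that binds actin, had 5610, 4040 and 7000 against 1650 and 1830 in sham arrays (1.64 ± 0.19), and Tagln2 had 3410, 3700 and 3250 against 1210 and 1420 in sham arrays (1.40 ± 0.16). At least 12 members were called with any 1 array left out.

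Matrix genes rose in 10 of 33 cases, and the count was 6 without injury replicate 1 and 6 without injury replicate 3, 2 without sham 1c and 3 without sham 1d. Col4a1, a basement membrane collagen, had 3200, 2040 and 2270 in injury arrays against 1070 and 1130 in sham arrays (1.16 ± 0.24, adjusted p = 0.00304) and was called in each of those fits. The matricellular glycoprotein Tnc had 1120, 478 and 1100 against 79.0 and 230 in sham arrays (2.64 ± 0.49), with adjusted p = 0.00135, or 0.0544 without sham 1c. Growth factors and their binding proteins rose in 8 of 29 cases. Igfbp3 had 1140, 518 and 1340 in injury arrays against 160 and 193 in sham arrays (2.39 ± 0.40), and Tgfbi, a matrix protein induced by Tgfb1, had 644, 601 and 695 against 111 and 130 in sham arrays (2.42 ± 0.49). Bdnf, the neurotrophin gene, had 6360, 3440 and 6570 in injury arrays against 2470 and 1870 in sham arrays (1.29 ± 0.29, chosen after its value was seen), with adjusted p = 0.00698, or 0.126 without sham 1d. An uninjured array of another time reached 6280 for Bdnf, within the injury range.

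Adhesion molecules moved both ways, 4 of 27 up (14.8%, beside 6.2% of all genes) and 5 down (18.5%, beside 4.5%). Endothelial cadherin, Cdh5, rose (814, 560 and 619 in injury, 221 and 275 in sham arrays; 1.41 ± 0.28, adjusted p = 0.00204). Alcam, an adhesion molecule of neurons and endothelium, had 312, 318 and 357 in injury arrays against 816 and 1090 in sham arrays (-1.52 ± 0.30), with adjusted p = 0.00218, or 0.0619 without sham 1d. The other falls were of the neuronal adhesion genes Icam5 (-1.10), Ncam1 (-0.58), Nrcam (-0.69) and Cdh2 (-0.69), named after their values were seen. The list's falls numbered 2 without injury replicate 1, 1 without injury replicate 3, 1 without sham 1c and 0 without sham 1d by limma, while its rises numbered 2 without either sham array.

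Vessel genes rose in 6 of 27 cases (22.2%, beside 6.2% of all genes) and fell in 2 (7.41%, beside 4.5%). Vwf, the clotting factor stored in endothelium, had 1050, 1100 and 891 in injury arrays against 332 and 196 in sham arrays (1.98 ± 0.31, adjusted p = 0.000312), and the vasodilator peptide gene Adm had 233, 146 and 263 against 33.1 and 45.9 in sham arrays (2.41 ± 0.39). Cldn5, a tight junction gene that marks brain endothelium, had 1480, 1560 and 1070 in injury arrays against 1120 and 1300 in sham arrays, with overlap. Without injury replicate 1 the list had 3 rises and no fall, without sham 1d 3 rises and no fall, and without sham 1c no fall. Of 11 pericyte and smooth muscle markers 1 rose (9.09%, beside 6.2% of all genes). That was Tagln, an actin-binding protein, with 1990, 1300 and 2370 in injury arrays against 390 and 361 in sham arrays (2.29 ± 0.29). Hemoglobin and other red cell genes were not called (0 of 6): Hba-a1 had 12500, 16600 and 9110 in injury arrays and 12300 and 10900 in sham arrays (0.10 ± 0.23, adjusted p = 0.848). Meningeal and fibroblast markers had 4 rises and 1 fall among 13, with 2 rises without injury replicate 1, 2 without injury replicate 3, 0 without sham 1c and 1 without sham 1d, and with 4 falls without injury replicate 2. Slc6a13, a transporter of meninges and vessels, fell (541, 666 and 634 in injury, 1390 and 1070 in sham arrays; -1.0 ± 0.19, adjusted p = 0.00144). This 1 fall made 7.69% of the meningeal list, beside 4.5% of all genes, and the list's rises 30.8%, beside 6.2%. None of 5 choroid plexus markers and none of 11 skeletal muscle and skin markers was called (1 muscle or skin gene fell without injury replicate 3), and of 7 pituitary markers 1 rose, the granin gene Chga that neurons also express.

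Immediate early genes, transcription factors that respond to stimulation within minutes, were still raised at 24 h in 11 of 24 cases. Atf3, a stress-induced factor, had 1240, 1050 and 1630 in injury arrays against 257 and 297 in sham arrays (2.22 ± 0.28, adjusted p = 3.09e-05). Klf10 had 3470, 2670 and 2670 against 1150 and 1210 in sham arrays (1.31 ± 0.18), and Fosl1 had 397, 189 and 205 against 31.0 and 36.0 in sham arrays (2.89 ± 0.44). Fos, chosen after its value was seen, had 5070, 3010 and 9240 in injury arrays against 928 and 1090 in sham arrays (2.37 ± 0.38), and an uninjured array of another group reached 4230, inside the injury range. The 1 fall was of the orphan receptor gene Nr4a2 (216, 310 and 291 in injury, 602 and 793 in sham arrays; -1.36 ± 0.36), also named after its value was seen, with adjusted p = 0.0188, or 0.0729 without injury replicate 1, 0.0535 without sham 1c and 0.198 without sham 1d.

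Growth arrest genes rose in 4 of 20 cases. The cell cycle inhibitor Cdkn1a had 2350, 1230 and 2470 in injury arrays against 397 and 343 in sham arrays (2.38 ± 0.22, adjusted p = 8.59e-07), and its second probe set gave 1.82. Gadd45b had 3020, 1440 and 3130 against 300 and 316 in sham arrays (2.96 ± 0.29), and Gadd45a had 1050, 637 and 970 against 259 and 393 in sham arrays (1.44 ± 0.23). An uninjured array of another group had 1940 for Gadd45b, above the lowest injury array. Sesn1, a sestrin of the same p53 programme, fell (962, 1640 and 809 in injury, 2320 and 2400 in sham arrays; -1.12 ± 0.22, adjusted p = 0.00204), chosen after its value was seen. Of 16 apoptosis genes 1 rose (6.25%, beside 6.2% of all genes), the survival factor Mcl1 (2460, 1800 and 3040 in injury, 1280 and 1200 in sham arrays; 0.94 ± 0.17, adjusted p = 0.00124).

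Antioxidant genes rose in 5 of 27 cases, 3 without sham 1d. Hmox1, which breaks down heme, had 5700, 7280 and 4740 in injury arrays against 1290 and 1090 in sham arrays (2.30 ± 0.21, adjusted p = 5.24e-07). Heat shock genes had 3 rises and 1 fall among 20, in every fit that left out 1 array. With all arrays, 15% of the heat shock list rose and 5% fell, beside 6.2% and 4.5% of all genes. The co-chaperone Bag3 rose by 1.53 ± 0.24 (649, 622 and 539 in injury, 190 and 229 in sham arrays), the collagen chaperone Serpinh1 by 1.34 ± 0.23 (861, 1080 and 918 in injury, 297 and 472 in sham arrays), and Hspb8 by 0.99 ± 0.17. Hspa2 fell (286, 371 and 280 in injury, 669 and 784 in sham arrays; -1.23 ± 0.23). Of 18 ER stress genes 3 rose (16.7%, beside 6.2% of all genes). Manf led with 1910, 1710 and 1470 in injury arrays against 938 and 966 in sham arrays (0.82 ± 0.15, adjusted p = 0.00119).

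None of the oxidative phosphorylation genes rose (0%) and 6.67% of the ribosomal protein genes did, beside 6.2% of all genes. Of 36 oxidative phosphorylation genes 1 fell (2.78%, beside 4.5% of all genes), Sdha (1000, 1090 and 1100 in injury, 1480 and 1690 in sham arrays; -0.57 ± 0.13), with adjusted p = 0.00581, or 0.127 without sham 1d. The median of that list was 0.03. Among 28 glycolysis and hypoxia genes 3 rose (10.7%, beside 6.2% of all genes), with Hk2, a hexokinase, at 491, 327 and 505 in injury arrays against 99.7 and 82.8 in sham arrays (2.25 ± 0.41, adjusted p = 0.00109). Of 15 ribosomal protein genes 1 rose (6.67%), Rplp0 (0.70 ± 0.14), and 3 did without sham 1c and 2 without injury replicate 3. In the prostaglandin list 2 of 13 rose, with the inducible cyclooxygenase gene Ptgs2 at 1250, 401 and 2910 in injury arrays against 124 and 148 in sham arrays (3.06 ± 0.64, adjusted p = 0.00360). An uninjured array of another group had 659 for Ptgs2, inside the injury range. The second, Pla2g4a, was not called without any 1 of the arrays other than injury replicate 2 (adjusted p = 0.0741 without injury replicate 1, 0.0883 without injury replicate 3, 0.178 without sham 1c and 0.0922 without sham 1d).

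The largest falls were smaller than the largest rises and included genes of neuronal signalling. Wfdc18, a small secreted protein with a WAP domain, had 77.0, 59.6 and 81.6 in injury arrays against 464 and 473 in sham arrays (-2.70 ± 0.29, adjusted p = 4.79e-06). Nnat, neuronatin, had 1080, 1850 and 1230 against 3920 and 5380 in sham arrays (-1.77 ± 0.33, adjusted p = 0.00148). An uninjured array of another group had 1470 for Nnat, inside the injury range. Myh7, the slow muscle and heart myosin heavy chain, had 53.1, 579 and 138 in injury arrays against 1250 and 1350 in sham arrays (-3.01 ± 0.60, adjusted p = 0.00230). The value of Myh7 rests on a single tested probe set, and whether other myosin genes add to its signal was not tested. With only the groups compared in the fit, the adjusted p of Myh7 was 0.0675 (limma). These 3 kept their call with any array left out, although the 3 injury values of Myh7 spread widely and injury replicate 2 was nearest to sham.

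Other large falls lost their call when 1 array was left out. Npy1r, a receptor for neuropeptide Y, had 24.1, 124 and 32.8 in injury arrays against 345 and 359 in sham arrays (-2.93 ± 0.71), with adjusted p = 0.0106, or 0.0509 without injury replicate 1, 0.0677 without sham 1c and 0.0929 without sham 1d. The imprinted gene Impact, a regulator of translation, had 394, 346 and 535 in injury arrays against 1260 and 1980 in sham arrays (-1.92 ± 0.42), with adjusted p = 0.00463, or 0.106 without sham 1d. B3galt2, a galactosyltransferase, had 215, 343 and 153 in injury arrays against 883 and 1140 in sham arrays (-2.16 ± 0.48), with adjusted p = 0.00535, or 0.0842 without sham 1d. An uninjured array of another group had 237 for B3galt2, inside the injury range, whereas the injury arrays of Impact and Npy1r were below every uninjured array. Others of the 12 were the receptor gene Trhr, the angiotensin precursor gene Agt, the transcription factor gene Klf1, the glutamate transporter gene Slc1a6 and the vesicle gene Rab3b (-2.65 to -1.79). Without sham 1c their adjusted p was 0.0684 (Slc1a6) to 0.153 (Klf1). Without sham 1d it was 0.219 for Trhr, 0.102 for Klf1 and 0.182 for Rab3b. Without injury replicate 1 it was 0.0955 for Trhr, 0.0727 for Klf1 and 0.109 for Rab3b, and without injury replicate 3 it was 0.0527 for Rab3b. With the title letter as a blocking factor it was 0.117 for Trhr and 0.0676 for Klf1. Agt lost its call without injury replicate 1 or 3 or either sham array.

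Of 36 excitatory and pan-neuronal genes 3 fell (8.33%, beside 4.5% of all genes) and 1 rose (2.78%, beside 6.2%), with a median of -0.16. The growth-associated gene Gap43 had 4380, 3650 and 4950 in injury arrays against 6570 and 7930 in sham arrays (-0.75 ± 0.17), with adjusted p = 0.00653, or 0.132 without sham 1d. Without injury replicate 2 that list had 5 falls, without injury replicate 3 or sham 1c 1, and without sham 1d 0 (limma), and its rise was not called without injury replicate 1 or 3 or either sham array. Its 37 measured genes summed to 170000 to 207000 in injury arrays and 182000 and 220000 in sham arrays, which overlap.

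Of 28 inhibitory neuron and neuropeptide genes 3 rose and 3 fell (10.7% each way, beside 6.2% of all genes risen and 4.5% fallen). Calb1, a calcium buffer of inhibitory and upper-layer neurons, had 916, 1430 and 960 in injury arrays against 3060 and 3290 in sham arrays (-1.56 ± 0.20, adjusted p = 3.01e-05). The peptide genes Npy (9260, 7300 and 7330 in injury, 3600 and 4050 in sham arrays; 1.05 ± 0.15) and Penk (16900, 14900 and 17000 in injury, 7470 and 7270 in sham arrays; 1.14 ± 0.16) rose, as did Chga (1.25 ± 0.19). Npy was above every uninjured array, while Penk reached 15500 in an uninjured array, and the dim second probe set of Penk gave 0.55. The GABA-synthesis gene Gad1 had 11200, 7110 and 8920 in injury arrays against 7110 and 7940 in sham arrays. Falls of the list other than Calb1 were Vip (-1.20) and Reln (-0.85), named after their values were seen, and without sham 1d 1 fall was called. Without injury replicate 2 the list had 5 rises.

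Glutamate and GABA receptor genes had a median of -0.71 over 16 tested, with 2 falls (12.5%, beside 4.5% of all genes) and no rise. Gria3, an AMPA receptor subunit, had 152, 116 and 118 in injury arrays against 287 and 795 in sham arrays (-1.90 ± 0.46), with adjusted p = 0.00990, or 0.268 without sham 1d, when 1 gene of the list was called. Gabrb1, a GABA-A receptor subunit, had 2330, 3110 and 2070 against 4210 and 4070 in sham arrays (-0.75 ± 0.16, adjusted p = 0.00413), and both were below every uninjured array. Neuronal second messenger genes fell in 13.6% of cases, beside 4.5% of all genes. Of 22 neuronal second messenger genes 3 fell and none rose: beside Calb1 these were the calcium-responsive exchange factor Rasgrf1 (1410, 1670 and 1480 in injury, 3190 and 3950 in sham arrays; -1.23 ± 0.18) and Rgs14 (1190, 2800 and 1170 in injury, 3950 and 3660 in sham arrays; -1.27 ± 0.28), with adjusted p = 0.00479 for Rgs14, or 0.0527 without sham 1c. Ion channel genes had 1 rise among 27 (3.7%, beside 6.2% of all genes) and a median of 0.00. That rise was not called without injury replicate 1 or 3 or either sham array.

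Genes of axon growth moved both ways, 4 of 27 up and 4 down (14.8% each, beside 6.2% of all genes up and 4.5% down). Tubb6, a tubulin of regenerating axons, had 3890, 1990 and 2560 in injury arrays against 467 and 410 in sham arrays (2.63 ± 0.22, adjusted p = 1.92e-07), and Sprr1a, a marker of injured neurons, had 464, 397 and 480 against 70.0 and 73.0 in sham arrays (2.64 ± 0.46). Dcx, the microtubule protein of young neurons, fell (374, 384 and 378 in injury, 870 and 904 in sham arrays; -1.23 ± 0.21, adjusted p = 0.000815), as did Gap43. The remaining falls were Marcks (-0.97) and the ephrin receptor gene Epha5 (-0.65), named after their values were seen. Without sham 1d 2 of the falls were called.

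Myelin genes rose in 17.6% of cases, cholesterol synthesis genes in 29.4% and cell cycle genes in 18.2%, beside 6.2% of all genes, while lipid transport genes fell in 12.5%, beside 4.5%. Of 17 oligodendrocyte genes 3 rose (1 without sham 1d), with Mag, a myelin adhesion molecule, at 2210, 2580 and 2210 in injury arrays against 1040 and 1130 in sham arrays (1.11 ± 0.21, adjusted p = 0.00180). The dim second probe set of Mag gave 0.20. Among 24 lipid transport genes 2 rose (8.33%, beside 6.2% of all genes) and 3 fell. Apod, a lipocalin that carries lipids, had 8100, 3780 and 4750 in injury arrays against 1670 and 1990 in sham arrays (1.53 ± 0.30), whereas Pltp, a phospholipid transfer protein, had 694, 1310 and 1010 against 2480 and 2930 in sham arrays (-1.47 ± 0.26). Falls of that list numbered 1 without injury replicate 3 and 1 without sham 1d, and rises 1 without injury replicate 1 and 1 without sham 1d. Of 17 cholesterol synthesis genes 5 rose, and 2 did without injury replicate 1, 1 without injury replicate 3, 2 without sham 1c and 1 without sham 1d. Fdft1, squalene synthase, had 3160, 3320 and 3880 in injury arrays against 1970 and 1700 in sham arrays (0.91 ± 0.21), with adjusted p = 0.00814, or 0.120 without sham 1d. Of 33 cell cycle genes 6 rose and none fell, but 2 to 3 were called without injury replicate 1, 2 or 3 or sham 1c and 0 without sham 1d (limma). The replication gene Mcm5 had 661, 924 and 608 in injury arrays against 378 and 379 in sham arrays (0.92 ± 0.20), with adjusted p = 0.00409, or 0.0505 without sham 1d, and its second probe set ran the other way (-1.36).

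**Figure D4:**
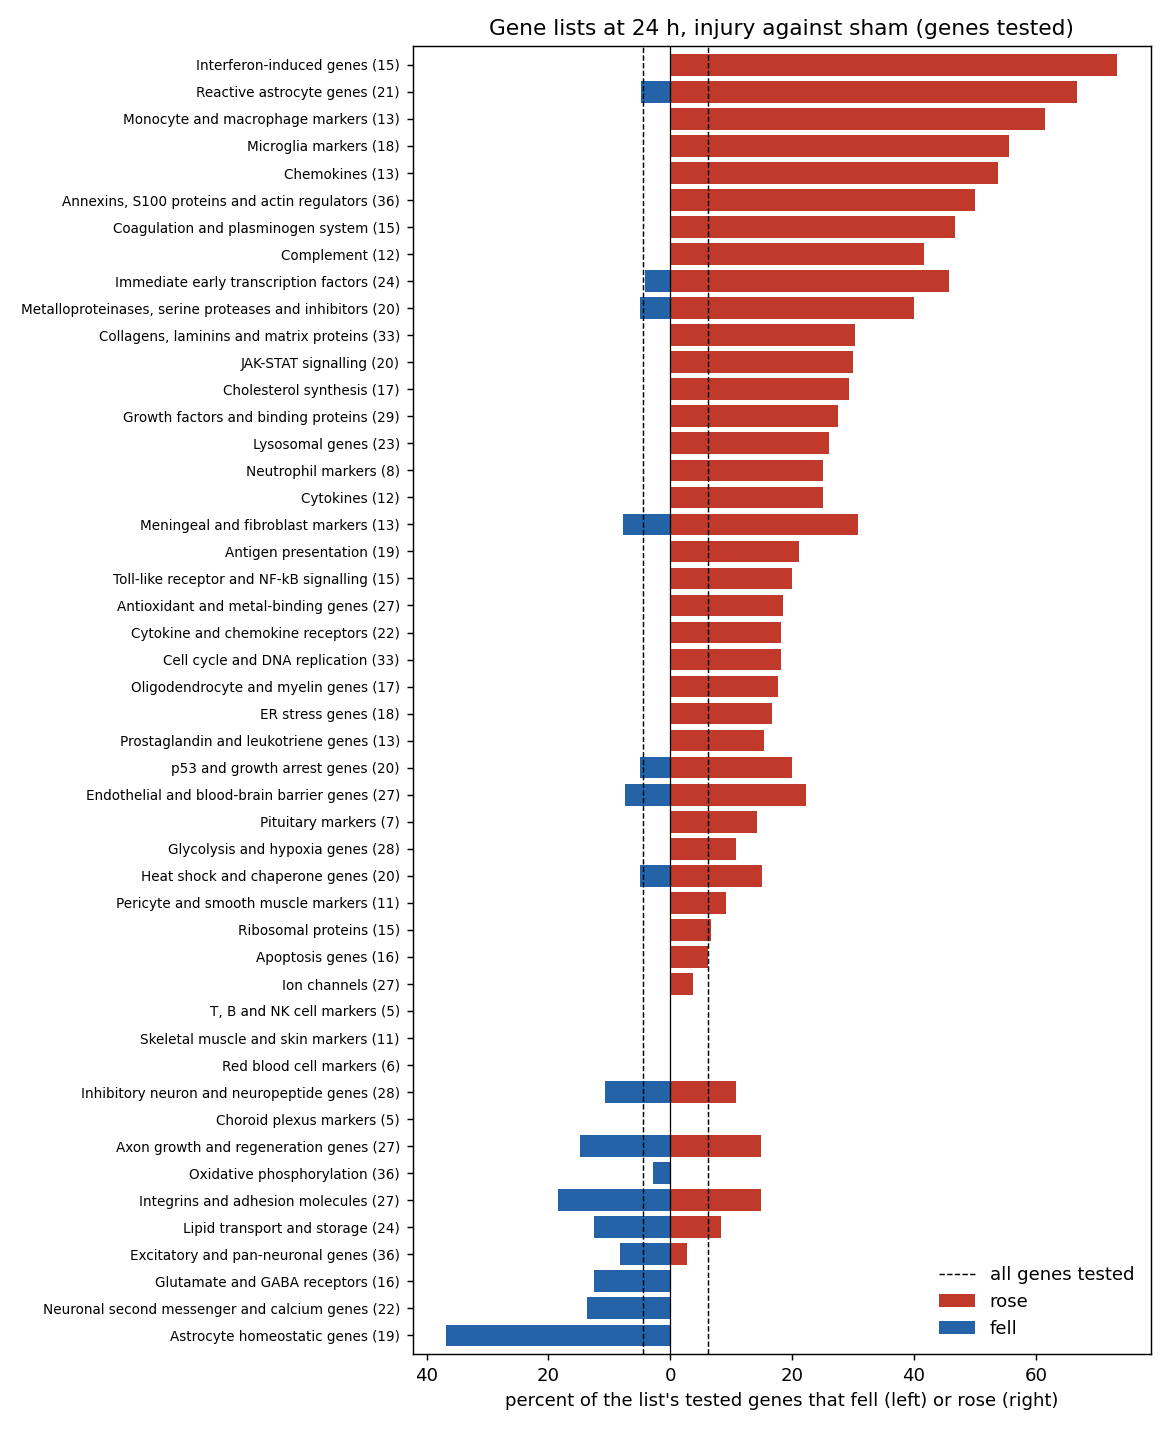
Share of each list's tested genes (number in brackets) that rose (red, right) or fell (blue, left) at 24 h. Dashed lines mark the shares over all genes tested, 6.2% risen and 4.5% fallen. Interferon-induced and reactive astrocyte genes are at the top, and resting astrocyte genes at the bottom.

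With injury replicate 2 left out, 1 fall each was called among the microglial, antioxidant, oligodendrocyte, prostaglandin and growth factor lists, which had no fall with all arrays. Growth factors also had 1 without injury replicate 3 and JAK-STAT genes 1 without sham 1c.

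The injury effect at 24 h was then set against those at 8 h and 72 h, each measured against its own sham arrays, by testing the difference of the effects. Titles of 8 h carry the letter b in all injury arrays and b or c in sham arrays. Those of 72 h carry the same letters as those of 24 h. Between 8 h and 24 h the letter of the injury arrays thus changed together with the time. Against 8 h, 3 genes were called (0.0472% of those tested) and each call was lost when a single array was left out. Nes was higher at 24 h (2.34 ± 0.17) than at 8 h (0.93 ± 0.17), a difference of 1.40 ± 0.24. The macrophage attractant Ccl3 was lower at 24 h (1.79 ± 0.34) than at 8 h (4.73 ± 0.34), a difference of -2.94 ± 0.48. The rise of Ccl3 at 24 h had adjusted p = 0.00164, or 0.0667 without sham 1d. Wfdc18 was low at 24 h (-2.70 ± 0.29) and not called at 8 h (-0.33 ± 0.29), a difference of -2.37 ± 0.42. Each had adjusted p = 0.0341 in limma. With a block for the title letter in that fit, it was 0.128 for Nes and Wfdc18 and 0.00395 for Ccl3. Without sham 1c the adjusted p was 0.147 for all 3, and without injury replicate 3 it was 0.0889 for Nes, 0.0783 for Ccl3 and 0.0783 for Wfdc18. Without sham 1d it was 0.172 for Nes and 0.212 for Wfdc18, and without injury replicate 1 it was 0.0894 for both. The count was 17 without injury replicate 2.

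Against 72 h, 18 genes were called (0.283%), of which 16 had a lower effect at 24 h, and several of those are genes of phagocytes. Lyz2 was raised by 2.50 ± 0.33 at 24 h and 5.37 ± 0.33 at 72 h, a difference of -2.87 ± 0.46 (adjusted p = 0.00677). Mpeg1, the pore-forming protein of macrophages, had 1090, 1080 and 1000 in injury arrays against 956 and 1040 in sham arrays at 24 h (0.08 ± 0.21) and an effect of 2.48 ± 0.21 at 72 h, a difference of -2.40 ± 0.30 (adjusted p = 0.000388). Grn, the lysosomal protein progranulin, had 977, 1090 and 1010 in injury arrays against 941 and 989 in sham arrays at 24 h and a difference of -1.71 ± 0.21. These 3 were called with any array left out, but Grn was not with the mean of its probe sets (-1.23, adjusted p = 0.456) nor Lyz2 with averaged sham arrays (adjusted p = 0.166). Also called with any array left out was Fabp7, a fatty acid-binding protein of immature astrocytes, whose effect was -0.99 ± 0.24 at 24 h (1250, 1410 and 728 in injury, 2110 and 2220 in sham arrays) and 1.84 ± 0.24 at 72 h, a difference of -2.83 ± 0.34 (adjusted p = 0.000303, or 0.0611 with averaged sham arrays). The fall of Fabp7 at 24 h itself had adjusted p = 0.0114, or 0.0525 without injury replicate 3, 0.0633 without sham 1c and 0.106 without sham 1d.

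Complement and lysosomal genes with called differences were C1qc (-1.52 ± 0.25), C1qb (-1.13 ± 0.19) and Cd68 (-1.71 ± 0.31). Without sham 1d their adjusted p was 0.0589, 0.0993 and 0.100, and without sham 1c it was 0.0712 for Cd68. With the mean of its probe sets C1qb gave -0.60 (adjusted p = 0.369). A higher effect at 24 h than at 72 h was called for 2 genes. The kinase gene Map3k6 had 558, 240 and 240 in injury arrays against 96.1 and 103 in sham arrays at 24 h (1.68 ± 0.41) and an effect of -1.26 ± 0.41 at 72 h, a difference of 2.94 ± 0.58 (adjusted p = 0.0264, or 0.0674 without injury replicate 1, 0.120 without sham 1c and 0.120 without sham 1d). The retinol carrier gene Rbp4 differed by 1.19 ± 0.22 (adjusted p = 0.0187, or 0.0562 without injury replicate 1, 0.120 without sham 1c and 0.0660 without sham 1d). The count of 18 was 51 without injury replicate 2, 6 without sham 1c and 6 without sham 1d.

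**Figure D5:**
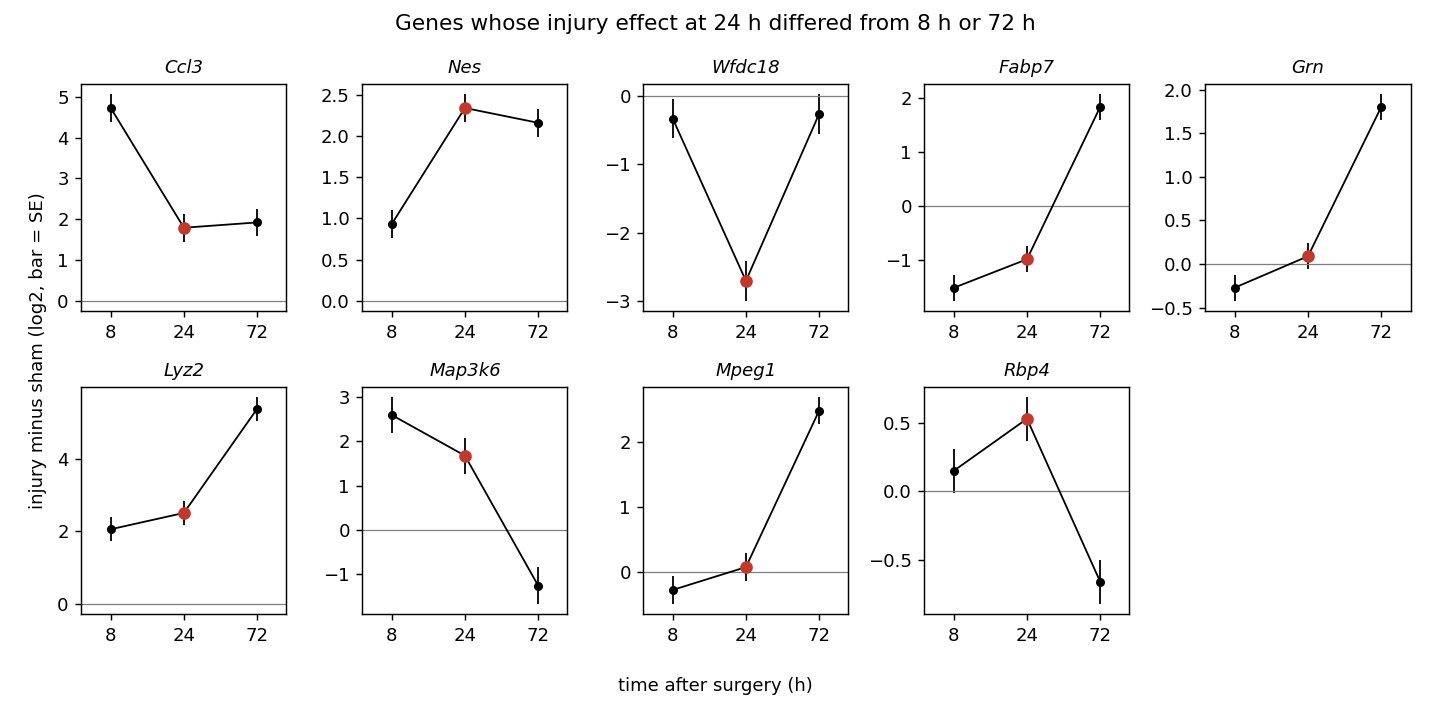
Injury minus sham effects (log2, bars are the standard error from limma) at 8, 24 and 72 h for the 9 genes with the largest called differences between 24 h and either other time, with 24 h in red. Mpeg1, Grn, Lyz2 and Fabp7 are higher at 72 h than at 24 h, and Wfdc18 is lowest at 24 h.

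As a check on the controls, the sham 24 h arrays were tested against the mean of the other uninjured groups. No gene was called by limma (0%), while 226 had an unadjusted p below 0.05, and 3 were called without sham 1c and 1 without sham 1d. Their correlations with the other uninjured arrays were 0.924 to 0.966, beside 0.961 for the naive pair. With all 10 uninjured arrays as 1 control group, 1208 genes were called, 635 higher and 573 lower in injured cortex.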

How the data were processed

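The values analysed were the deposited intensities of 22 mouse Affymetrix arrays, 1 linear intensity per probe set, as the authors deposited them. The software that made them is not given in the sources used here, and the arrays share a trimmed mean (2% off each end) of 800.3 to 800.5. Depth in reads does not apply to arrays, and the number of arrays limits the precision. From the deposited intensities, values below the pooled 10th percentile (24.1) were set to it and log2 values taken. Of 12488 probe sets 66 were controls, and 8477 exceeded the pooled 40th percentile (193) on at least 3 arrays. Of these, 7630 had 1 gene symbol in GEO's platform annotation, 273 several and 574 none, and the first set covered 6355 genes. The probe set with the highest mean stood for each of the 1104 genes with several. A limma 3.58.1 fit (R 4.3.3) gave 1 mean to each of 9 mouse groups (13 residual degrees of freedom), with a variance trend and Benjamini-Hochberg adjustment over all genes at 0.05. It was tested on simulated data. Figures used Python 3.11.15 with matplotlib 3.10.9.

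A fold against sham arrays that were both at the floor is given as "at least". Folds of genes with only some arrays of a group at the floor carry no such mark, although the floor can make them too small. Named genes were the 12 largest rises and 12 largest falls of at least 2-fold without overlap, up to 4 called members of each of 48 gene lists by adjusted p (the 2 brightest members where fewer than 2 were called), and the 5 largest called differences in each direction against 8 h and 72 h. Genes outside this rule are marked as chosen after their values were seen. Left unmarked are marker genes of cell types, genes named only in captions and the full list of called differences between times. The members, the gene lists and the tests were chosen with earlier results of these data known. Alternatives covered the normalization, the filter, the floor, the probe sets, the title letter, the arrays in the fit, the control group, the variance trend and each array left out. Fits without the sham 4 h arrays, with array weights and with each probe set by itself were added after seeing the data. Promoter sequences of mouse and the rat arrays were not analysed here.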

Additional observations from a re-analysis of the deposited data

Results flagged for a closer look

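The injury effect at 24 h differed from that at another time in 21 tests of the difference itself (limma, Benjamini-Hochberg adjusted p below 0.05 over all genes), each time measured against its own sham arrays. Against 8 h, the difference (24 h minus 8 h, log2) was -2.94 for Ccl3, -2.37 for Wfdc18 and 1.40 for Nes. Against 72 h, negative differences (24 h minus 72 h) were found for the phagocyte and complement genes Lyz2 (-2.87), Mpeg1 (-2.40), Cd68 (-1.71), Grn (-1.71), C1qc (-1.52), C1qb (-1.13), Ctss (-0.98) and Csf1r (-0.97). Further negative differences were -2.83 for Fabp7, -2.44 for Wfdc18, -1.61 for the matrix proteoglycan gene Bgn, -1.39 for Tmc6, -1.32 for Itih3, -1.22 for Smpdl3a, -1.22 for the cobalamin carrier gene Tcn2 and -0.98 for Plp2. Positive differences were 2.94 for Map3k6 and 1.19 for Rbp4. With any 1 of the 5 arrays left out, Lyz2, Mpeg1, Grn and Fabp7 kept their call against 72 h. Every other gene called against 72 h lost it in at least 1 such fit. Without sham 1c these were all but C1qb and C1qc (adjusted p = 0.0544 to 0.12), and without sham 1d all but Itih3 (0.0526 for Bgn to 0.232 for Tcn2). Without injury replicate 1 they were Csf1r, Map3k6, Plp2, Rbp4, Smpdl3a and Tcn2 (0.0553 to 0.0727). With the mean of probe sets the differences became -0.30 for Csf1r (adjusted p = 0.773), -0.60 for C1qb (0.369), -1.15 for Bgn (0.0537) and -1.23 for Grn (0.456). No cause of these differences was tested.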

How the results depend on the processing

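No paired analysis was possible because injury and sham arrays of 24 h share only the replicate number 1. The titles of all 3 injury arrays and of sham 1c also share the letter c, whose meaning is not stated. A block for that letter gave 468 calls, 417 of them among the 680, with 163 falls against 286, and ended the calls of Trhr (adjusted p = 0.117), Klf1 (0.0676) and Tbr1 (0.124), among others. Of 153 named genes called at 24 h, 81 kept their call in all 16 alternatives and 72 lost it in at least 1. The 680 calls became 296 with only the groups compared in the fit, 255 with averaged sham arrays and 1208 with all uninjured arrays as 1 control, and ran from 249 to 769 with 1 array left out. Rises made up 394 of the 680 calls, and their share was 70.3% with only the groups compared, 71.8% with averaged sham arrays and 76.3% without sham 1d, but 52.6% with all uninjured arrays as 1 control, 54.2% without injury replicate 2 and 54.5% with array weights. The 3 calls against 8 h became 0 without the filter, 1 with a block for the letter in the titles, 1 with averaged sham arrays, 5 without the variance trend, 0 without the sham 4 h arrays and 1 with array weights, and ran from 0 to 17 with 1 array left out. The 18 calls against 72 h became 2 with averaged sham arrays and ran from 6 to 51 with 1 array left out. The 0 calls (limma) between sham 24 h and the other uninjured arrays, with 226 at an unadjusted p below 0.05, became 1 without the filter and ran from 0 to 3 with 1 array left out; the title letter block could not give this value. With the mean of probe sets, Mcm5 (-0.22, adjusted p = 0.81) and Fdps (-0.11, adjusted p = 0.842) changed direction, and the cause was not tested. Signals near the floor limit the folds of dim genes.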

Other observations

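When each probe set was fitted by itself in limma, 729 of 7630 were called. Among 1104 genes with several probe sets, 100 had probe sets whose differences lay more than 1 apart on the log2 scale. A further 51 genes were called only by a probe set other than the one used above, and 36 genes called above had no called probe set in that fit. In 0 genes (limma) were probe sets called in opposite directions.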
